A study of Homo sapiens with 6 samples.

Results

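In MR49F prostate cancer cells, 4939 sites inside protein-coding genes carried peaks of both BRG1 and SMARCC2, 2 subunits of the SWI/SNF chromatin remodelling complex, where neither subunit had a peak in LNCaP. These sites were found by joining the peaks of the 4 deposited peak lists that shared at least 1 bp, on chromosomes 1 to 22, which gave 63307 regions. Kept were regions with a peak of both antibodies in MR49F and no peak in LNCaP, with the midpoint inside a RefSeq protein-coding gene and more than 1 kb from any start or end of such a gene. They are called MR49F-only intragenic regions below. Over all 63307 regions, 17.9% had peaks of both antibodies in MR49F and none in LNCaP. Of the 30106 regions inside genes, 16.4% did (Wilson 95% interval 15.99 to 16.83, which covers counting error only). The intragenic ones made up 43.7% (42.8 to 44.6) of all MR49F-only regions of both antibodies. The sites were selected on the presence and absence of peaks, so these counts describe the choice.

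LNCaP is an androgen-responsive human prostate cancer line, and MR49F is a derivative of LNCaP that is resistant to the antiandrogen enzalutamide. The labels give 10 µM enzalutamide in the MR49F cultures and name no drug for LNCaP. The line and its drug exposure therefore cannot be told apart. All cells were crosslinked with 2 mM disuccinimidyl glutarate for 45 min and 1% formaldehyde for 10 min, and each precipitation used 4 µg of antibody. Each line had 1 library per antibody and 1 input, and the inputs were not analysed here. No value below therefore has replicate error, and no difference between lines was tested. A missing peak means that the peak caller's threshold was not reached. The deposited lists held 36174 LNCaP BRG1, 25706 LNCaP SMARCC2, 44308 MR49F BRG1 and 47615 MR49F SMARCC2 peaks.

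The unequal lengths of the lists bear on the number of MR49F-only sites. The reverse class, intragenic regions with both antibodies in LNCaP and no MR49F peak, held 1329 regions, which is 4.41% of regions inside genes. When each list was cut to as many of its strongest peaks as the shortest list holds, 2516 MR49F-only and 2319 LNCaP-only intragenic regions were found. With the 10000 strongest peaks of each list there were 1287 and 1211. The excess of MR49F-only over LNCaP-only sites thus went from 3.72 times with the full lists to 1.08 and 1.06 times with lists of equal length. With a −log10 q of 5 or more in all lists it went the other way, to 5.39 times (4995 against 926). The sites differ between these settings: 83.1% of the 2516, 41.2% of the 1287 and 72.9% of the 4995 overlapped one of the 4939. A shorter list also drops weak LNCaP peaks, and equal lengths by themselves bring such counts closer together. Tag counts at summits were solved from each peak's fold enrichment and p-value. Among peaks below a fixed bound of −log10 p, they were whole numbers (tolerance 0.02) for 100% of MR49F peaks and for 4.10% and 3.05% of LNCaP BRG1 and SMARCC2 peaks. The peak values of the lines may therefore not be on the same scale, the reason was not tested, and fold enrichments are not compared across lines. All 11 autosomal luminal prostate marker genes, among them KLK3, had a peak within 10 kb in every list, and both muscle markers had none in any list. Both hepatocyte markers had none in the LNCaP lists and a peak in both MR49F lists. Of 6 neuroendocrine markers, 2 had such a peak in either LNCaP list, 4 with MR49F BRG1 and 5 with MR49F SMARCC2. Of 3 basal markers 1 had a peak in each list, of 4 fibroblast markers 2 did except 1 with MR49F SMARCC2, and of 4 leukocyte markers 3 did except 1 with LNCaP SMARCC2.

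SWI/SNF complexes use the energy of ATP to slide and evict nucleosomes. BRG1, encoded by SMARCA4, is one of their 2 alternative ATPases, and SMARCC2, also called BAF170, is a scaffold subunit of the core. In prostate cells the complex is known to work at enhancers bound by the androgen receptor and forkhead factors, and many enhancers and alternative promoters lie within genes.

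A small part of the MR49F-only intragenic regions held a transcription start that RefSeq lists, at the outer edge of a gene or inside it. The 6 windows below are the 250 bases before such starts, on the gene's strand, from RefSeq on GRCh38.p14, the build of the peak files (hg38). Every window lies wholly within an MR49F-only intragenic region. They were picked after their values were seen, to show a strong site at the outermost start of a gene (FKBP5), inner starts in strong sites (RHOU and CDC14A), a cell cycle gene (CDKN1A), a gene with many sites (PDE4D) and a start poor in G and C (UGT2B11). Capitals mark matches, on either strand, to 9 motif strings: TGANTCA (AP-1), TGTTTAC (forkhead), AGAACA (one arm of the androgen and glucocorticoid receptor site), CCGGAAG (ETS), AGATAA (for GATA factors), GGAATG (TEAD), GGGCGG (SP and KLF), CACGTG (E-box) and TGTGGTT (RUNX). None of the strings contains another.
FKBP5, chr6:35728584-35728833, minus strand: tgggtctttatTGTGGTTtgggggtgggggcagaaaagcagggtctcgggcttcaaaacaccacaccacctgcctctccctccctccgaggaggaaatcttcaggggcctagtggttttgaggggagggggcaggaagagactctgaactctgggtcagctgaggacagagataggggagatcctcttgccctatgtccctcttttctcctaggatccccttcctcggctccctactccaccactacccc
RHOU, chr1:228735229-228735478, plus strand: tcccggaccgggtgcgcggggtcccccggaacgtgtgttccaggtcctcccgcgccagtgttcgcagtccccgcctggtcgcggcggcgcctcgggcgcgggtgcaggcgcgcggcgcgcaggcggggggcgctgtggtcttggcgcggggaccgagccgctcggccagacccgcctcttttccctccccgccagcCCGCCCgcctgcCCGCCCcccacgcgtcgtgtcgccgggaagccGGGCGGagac
CDC14A, chr1:100352256-100352505, plus strand: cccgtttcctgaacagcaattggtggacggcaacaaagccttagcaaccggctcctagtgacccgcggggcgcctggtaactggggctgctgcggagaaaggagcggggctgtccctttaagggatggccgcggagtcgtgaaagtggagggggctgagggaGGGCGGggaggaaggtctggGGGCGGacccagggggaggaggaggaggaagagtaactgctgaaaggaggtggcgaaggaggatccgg
CDKN1A, chr6:36678464-36678713, plus strand: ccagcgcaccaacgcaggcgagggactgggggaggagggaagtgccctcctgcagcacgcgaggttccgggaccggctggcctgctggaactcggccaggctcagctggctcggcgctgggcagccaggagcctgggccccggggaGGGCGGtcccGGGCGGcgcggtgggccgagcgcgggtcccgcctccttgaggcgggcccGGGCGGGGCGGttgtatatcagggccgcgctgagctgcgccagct
PDE4D, chr5:59587626-59587875, minus strand: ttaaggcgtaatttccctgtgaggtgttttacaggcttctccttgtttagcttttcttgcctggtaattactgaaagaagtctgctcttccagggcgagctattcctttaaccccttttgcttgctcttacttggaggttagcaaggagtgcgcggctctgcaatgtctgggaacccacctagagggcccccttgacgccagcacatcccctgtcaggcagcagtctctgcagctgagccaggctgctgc
UGT2B11, chr4:69214749-69214998, minus strand: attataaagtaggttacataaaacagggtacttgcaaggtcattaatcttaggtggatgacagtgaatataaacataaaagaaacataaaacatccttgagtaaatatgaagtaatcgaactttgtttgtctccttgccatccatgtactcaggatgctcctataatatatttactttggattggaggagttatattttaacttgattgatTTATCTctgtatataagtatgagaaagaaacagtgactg

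The FKBP5 window precedes the outermost listed start of the gene and has 1 RUNX match. FKBP5 encodes a cochaperone of steroid receptors that androgens and glucocorticoids induce, and the region over its start had a BRG1 fold enrichment of 14 and a SMARCC2 fold enrichment of 16.9, with the BRG1 summit 471 bp downstream of the start. RHOU encodes an atypical small GTPase. Its start lies 90.8 kb inside the annotated gene, the window has 3 SP and KLF matches, and the region had folds of 10.0 for BRG1 and 11.5 for SMARCC2. CDC14A encodes a dual-specificity phosphatase, and its window, 7.51 kb from the gene start, has 2 SP and KLF matches and folds of 8.99 and 9.80. CDKN1A encodes the cyclin-dependent kinase inhibitor p21, and 4 SP and KLF matches precede a start 2.25 kb inside the gene. The PDE4D start lies 935 kb inside a cyclic AMP phosphodiesterase gene, its window has none of the 9 strings, and the folds were 6.33 and 5.99. UGT2B11 encodes a steroid-conjugating enzyme of a family of similar genes, so the place of its reads is uncertain. Its window has 1 GATA match, and the folds were 7.39 and 8.35.

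Starts inside the MR49F-only sites were rich in G and C. A start of a protein-coding gene lay in 220 of the 4939 sites, 4.45% (3.91 to 5.07), and in 219 of them it belonged to the gene around the site. In 187 of them, from 186 genes, that start was more than 1 kb inside the gene. The share was 9.56% (8.90 to 10.3) in the 7048 intragenic regions with peaks in all 4 lists (23.4% of regions inside genes) and 1.5% (0.976 to 2.31) in the LNCaP-only intragenic regions. The classes differ in width, with medians of 933, 1678 and 892 bp in that order. With the BRG1 summit required within 250 bp of the start, a condition added after the data were seen, the shares were 1.90% (1.56 to 2.32), 2.87% (2.5 to 3.28) and 1.28% (0.80 to 2.04). For LNCaP-only regions the summit is that of the LNCaP BRG1 peak. The MR49F-only share depended on how the sites were defined: it was 0.611% with peaks joined by summits within 200 bp, 2.58% more than 5 kb from gene ends, 6.17% at a −log10 q of 5 or more and 6.52% with lists cut to the shortest. Of 265 such 250-base windows wholly inside MR49F-only sites, counting starts of non-coding genes too, 62.3% (56.3 to 67.9) held GGGCGG, against 65.8% (62.8 to 68.6) of 1014 windows in regions of all 4 lists and 42.6% of all 33558 listed windows. Median GC content was 67.6%, 68.8% and 58% in the same order. The receptor string AGAACA was in 5.66% (3.46 to 9.13), 7.89% (6.38 to 9.71) and 12% of windows, and the AP-1 string in 5.28% (3.17 to 8.67), 5.42% (4.19 to 6.99) and 6.55%. The other strings stood in 2.64% to 10.2% of windows in MR49F-only sites. A match is a description of these letters, and the parts of the sites away from listed starts were not searched.

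The enrichment at MR49F-only intragenic regions was moderate. The fold enrichment over local background, as the authors' peak caller gives it, had a median of 4.81 for BRG1 (range 2.07 to 32.2) and 5.42 for SMARCC2 (range 2.13 to 74.7). In the regions of all 4 lists the medians in MR49F were 6.06 and 7.03. The median tag count at the summit was 25 for BRG1 and 26 for SMARCC2, over a local background of 4.38 and 3.95 tags. Among all peaks of the MR49F lists, the median site stood at percentile 46.3 by BRG1 −log10 q and at 50.5 by SMARCC2, and regions of all 4 lists stood at 72.7 and 74.2. The strongest 10% of the lists held 5.35% and 6.72% of the MR49F-only sites. Presence in these lists chose the sites, so these strengths describe them. Each antibody had 1 peak in 97.6% of sites. SMARCC2 had the higher fold in 68.7% (67.3 to 69.9) of them. That share was 73.7% in regions of all 4 lists inside genes. It was 72.2% in MR49F-only regions between genes and 51.8% in those at gene ends. BRG1 and SMARCC2 folds had a Spearman correlation of 0.66 across the 4939 sites, which share libraries and local background. In regions of all 4 lists inside genes the correlation was 0.80.

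The distance between the BRG1 and SMARCC2 summits was bounded by the choice, since the peaks had to join into 1 region. It had a median of 67 bp (95% interval 64 to 70) and quartiles of 27 and 162 bp. Summits were within 100 bp of each other in 62.5% (61.1 to 63.8) of sites. Regions of all 4 lists inside genes had a median of 54 bp and 67.3% within 100 bp, and MR49F-only regions between genes had 57 bp and 68%. MR49F-only regions at gene ends were wider apart, with 122 bp and 43.7%. The median was smaller among stronger peaks, at 41 bp when lists were cut to the length of the shortest, and 29 bp with the 10000 strongest peaks of each list.

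**Figure D1:**
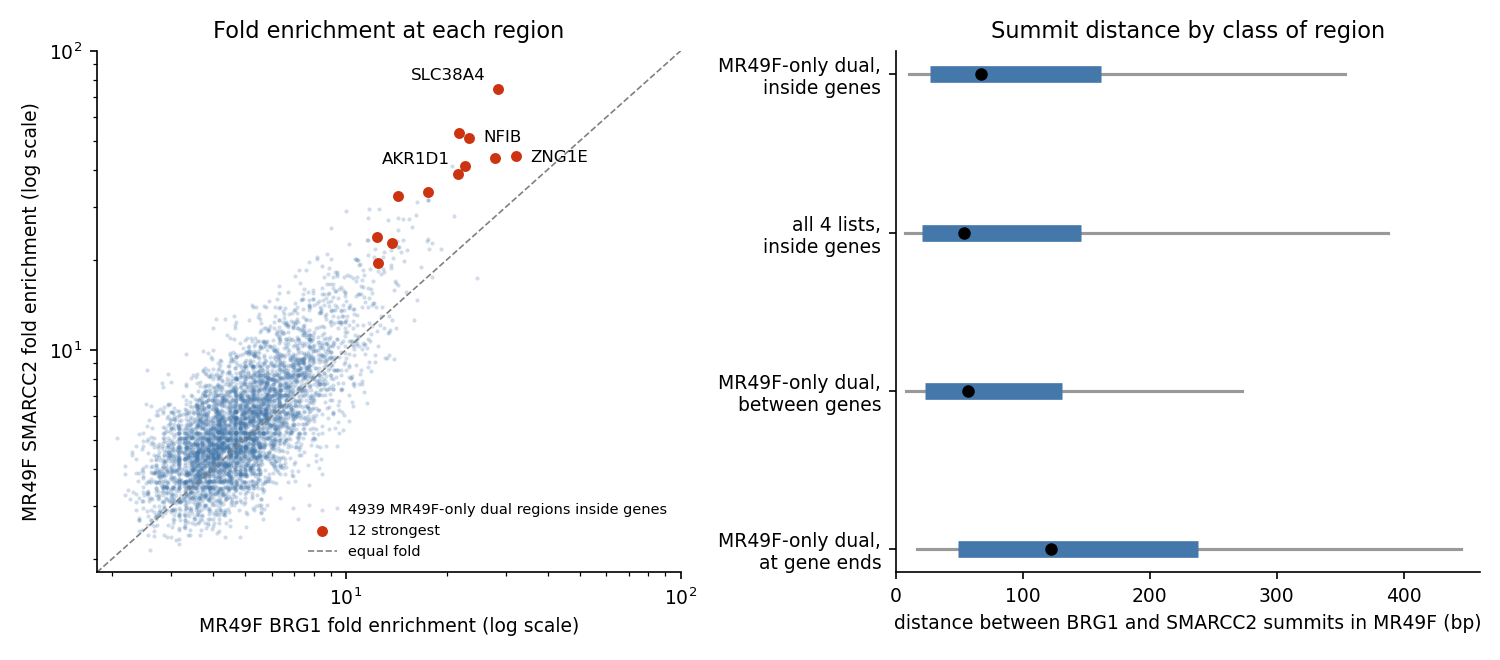
Left, BRG1 against SMARCC2 fold enrichment in MR49F, both on log scales, for each of the 4939 MR49F-only intragenic regions, with the 12 strongest in red and a dashed line at equal fold (dual in the labels means peaks of both antibodies). Right, distance between the summits of both antibodies in 4 classes of region, with the median as a point, the quartiles as a thick bar and the 10th to 90th percentile as a line; the medians are 67, 54, 57 and 122 bp from top to bottom.

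The 12 strongest MR49F-only intragenic regions, by the worse of their ranks with the antibodies, had folds of at least 12.3 for BRG1 and 19.5 for SMARCC2. SMARCC2 had the higher fold in all 12, and their summits were at most 36 bp apart. The region in SLC38A4, a sodium-coupled amino acid transporter gene, ranked first with both antibodies (chr12:46792614-46793695), with a BRG1 fold of 28.5 and a SMARCC2 fold of 74.7. Its nearest LNCaP peak was 298 kb away. The site in NFIB, which encodes a nuclear factor I transcription factor, had folds of 23.3 and 51.1 and lay 7.84 kb from an LNCaP peak (chr9:14106216-14107445). The site in NNT, the gene of a mitochondrial transhydrogenase, had folds of 21.8 and 53.2 and lay 96.2 kb from an LNCaP peak. The others were in AKR1D1, PALM2AKAP2, LRRC75A, HUS1, ZNG1E, GPR176, CCDC88C, CRADD and KIAA1217. HUS1 encodes a subunit of a DNA damage checkpoint clamp, and CRADD an adaptor protein of cell death signalling. ZNG1E has near-identical copies, so the place of its reads is uncertain. Of the 12 sites, 3 were more than 50 kb from an LNCaP peak and 4 were within 10 kb of one.

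Across all MR49F-only intragenic regions, the nearest LNCaP peak lay at a median of 14.7 kb. An LNCaP peak was within 1 kb of 6.07% (5.44 to 6.77) and within 10 kb of 40.6% (39.3 to 42.0) of them, and 8.89% were more than 100 kb from any. A region of all 4 lists was within 10 kb of 22.5% (21.4 to 23.7). This share was 27.8% (25.4 to 30.2) for LNCaP-only intragenic regions and 14.6% (13.6 to 15.7) for MR49F-only regions between genes. At the edges of the rule, the kept site nearest to a gene end had its midpoint at 1004 bp, in REM2, and the nearest region left out was at 998 bp. The weakest peak of a kept site had a −log10 q of 2.00, in MAP3K12, and 273 sites had a −log10 q under 3 with at least 1 antibody. LNCaP peaks kept out 10231 regions inside genes with both antibodies in MR49F, and in 421 of these every LNCaP peak had a −log10 q under 3.

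The share of MR49F-only sites among regions inside genes differed between chromosomes. It was highest on chromosome 18, at 24.2% (21.2 to 27.5), chromosome 12, at 22.6% (20.5 to 24.8), and chromosome 19, at 22% (19.2 to 25.2). It was lowest on chromosome 6, at 12.6% (11 to 14.3), and chromosome 3, at 13.2% (11.9 to 14.6). Chromosomes 12, 18 and 19 held more MR49F-only sites than regions of all 4 lists inside genes. Local background, which follows DNA copy number among other things, was compared with this share. Its ratio of MR49F to LNCaP, relative to all autosomes, was 1.19 for BRG1 and 1.17 for SMARCC2 on chromosome 18, and 1.18 and 1.26 on chromosome 12, but 0.772 and 0.813 on chromosome 19. Over the 22 chromosomes the Spearman correlation of share and ratio was 0.51 for BRG1 and 0.49 for SMARCC2, and 0.68 and 0.65 without chromosome 19. Over 276 windows of 10 Mb it was weaker, 0.20 and 0.17. In 10 Mb windows the share was 12.4% (10.4 to 14.6) where the ratio was below 0.8 with both antibodies, 16.2% (15.8 to 16.7) between 0.8 and the inverse of 0.8, and 21.9% (18.8 to 25.3) above that inverse. The middle class held 4290 of the 4939 sites.

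**Figure D2:**
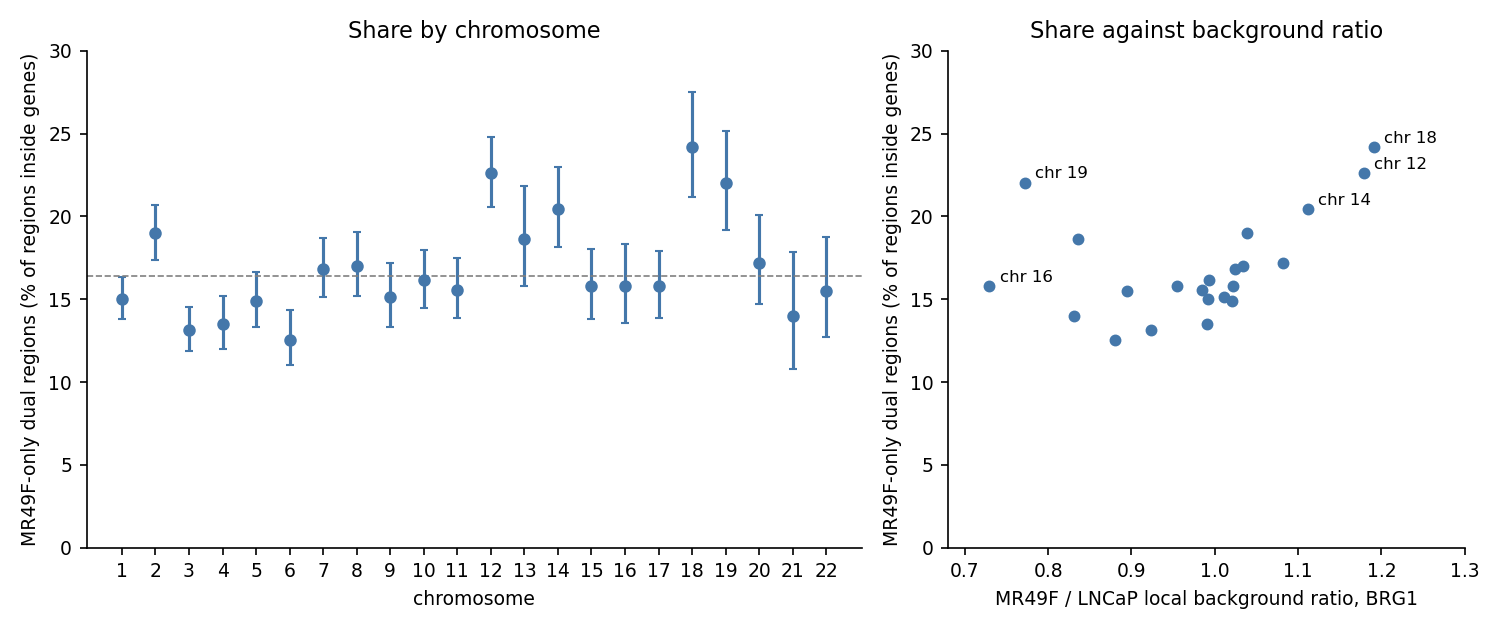
Left, MR49F-only intragenic regions as a percent of all regions inside genes on each chromosome, with Wilson 95% intervals and a dashed line at 16.4%. Right, the same percent against the ratio of MR49F to LNCaP local background with BRG1, 1 point per chromosome; chromosomes 18, 12 and 14 are high on both axes, and chromosome 19 has a share of 22% at a ratio of 0.772.

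MR49F-only intragenic regions lay in 3195 of 19126 autosomal protein-coding genes, 16.7%, and LNCaP-only intragenic regions in 5.59%. Among the 3195 genes, 2168 held 1 such site, 618 held 2, 222 held 3 and 187 held 4 or more. The share of genes with a site was higher in longer genes. At least 1 site was found in 1.82% (1.49 to 2.22) of genes under 10 kb, 7.87% of genes of 10 to 30 kb, 20.4% of genes of 30 to 100 kb, 43.6% of genes of 100 to 300 kb and 71.0% (67.7 to 74.2) of longer genes. Per Mb of gene the sites were spread more evenly, at 3.90, 4.73, 4.65, 4.25 and 3.33 in the same order. Regions of all 4 lists inside genes stood at 4.78, 5.96, 6.80, 6.83 and 4.10 per Mb.

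**Figure D3:**
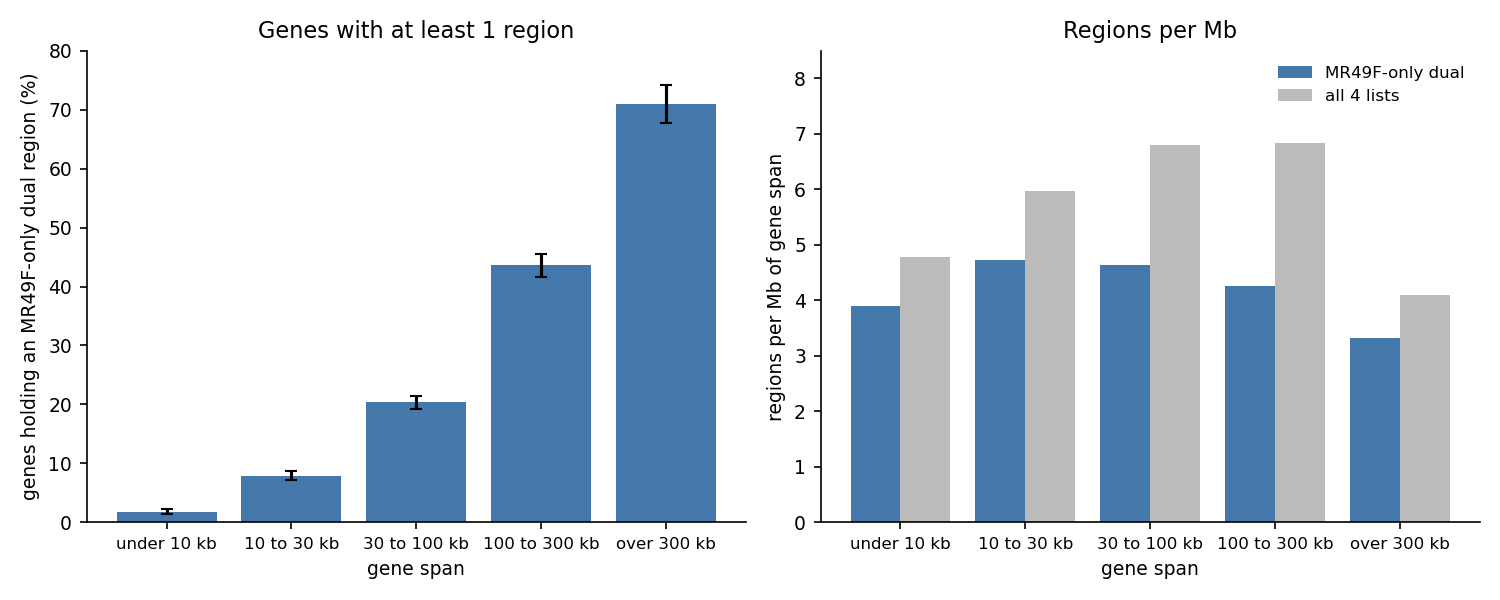
Left, percent of genes that hold at least 1 MR49F-only intragenic region by gene length, with Wilson 95% intervals, from 1.82% under 10 kb to 71.0% over 300 kb. Right, number of MR49F-only and of 4-list regions inside genes per Mb of gene span in the same length classes, where MR49F-only regions stay between 3.33 and 4.73.

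Where the gene's strand was known (3932 sites inside a single gene), the sites lay at a median of 54.6 kb from the gene start. The initial 20% of the gene held 23.6% (22.3 to 25) of them and the final 20% held 15% (13.9 to 16.2). That initial stretch held 27.4% (26.3 to 28.6) of regions of all 4 lists and 23% (20.5 to 25.6) of LNCaP-only regions. Within 5 kb of the start lay 10.0% (9.12 to 11) of MR49F-only sites and 5.02% (3.87 to 6.49) of LNCaP-only ones. The start itself was often occupied too. Of the 2573 genes with such a site and a known start, 30.2% had a peak of every list within 1 kb of the start, against 21.3% of 12528 genes without a site. Length enters this difference: under 10 kb the shares were 10.7% (5.50 to 19.7) and 13.1% (12.04 to 14.2), between 10 and 30 kb 20.4% and 19.6%, and between 30 and 100 kb 31.7% (28.6 to 34.9) and 29.2% (27.7 to 30.7). They were 35.5% (32.4 to 38.7) and 31.3% (28.7 to 34.05) between 100 and 300 kb. Over 300 kb they were 27.3% (23.3 to 31.7) and 20.9% (15.5 to 27.6). Peaks of MR49F lists alone stood at the start of 23.3% (21.7 to 25) of genes with a site and 15.7% (15.1 to 16.4) of genes without. This difference was seen in the 4 length classes up to 300 kb. Among genes of 100 to 300 kb the shares were 20.1% (17.6 to 22.9) and 15.5% (13.5 to 17.7). Among longer genes they were 18.4% (15 to 22.3) and 20.3% (15 to 27), which overlap. In genes under 10 kb the site and the start are close by construction. In longer genes too, a site near the start can itself supply the MR49F peaks counted there. By definition it brings no LNCaP peak. FKBP5, a gene of 155 kb, was counted with MR49F peaks alone at its start, which lies inside one of its sites. Such genes were not left out. How much of the difference in MR49F-only starts follows from the choice of sites was therefore not tested.

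IGF1R held the most MR49F-only intragenic regions, 17. It encodes the receptor tyrosine kinase for insulin-like growth factors, which signals through PI3K and AKT. Its span held 48 regions in all. Among the others were 6 regions of all 4 lists, 7 with both antibodies in MR49F and BRG1 alone in LNCaP, 12 with a single MR49F peak, and 2 with a single LNCaP peak. The 17 sites were weaker than the shared ones. Their BRG1 fold ran from 2.48 to 6.67 with a median of 3.68, and their SMARCC2 fold from 2.36 to 8.58 with a median of 4.47. The 6 shared regions had MR49F medians of 10.0 and 14.3. Of the 17 sites, 12 lay in the first 130 kb of the gene, none between 130 and 200 kb and 5 beyond. Counted anew with lists cut to the shortest, the gene held 7 MR49F-only intragenic regions, of which 3 overlapped the 17. With the 10000 strongest peaks it held 1, which overlapped none of them. The background ratio around IGF1R was 1.00 for BRG1 and 0.990 for SMARCC2.

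**Figure D4:**
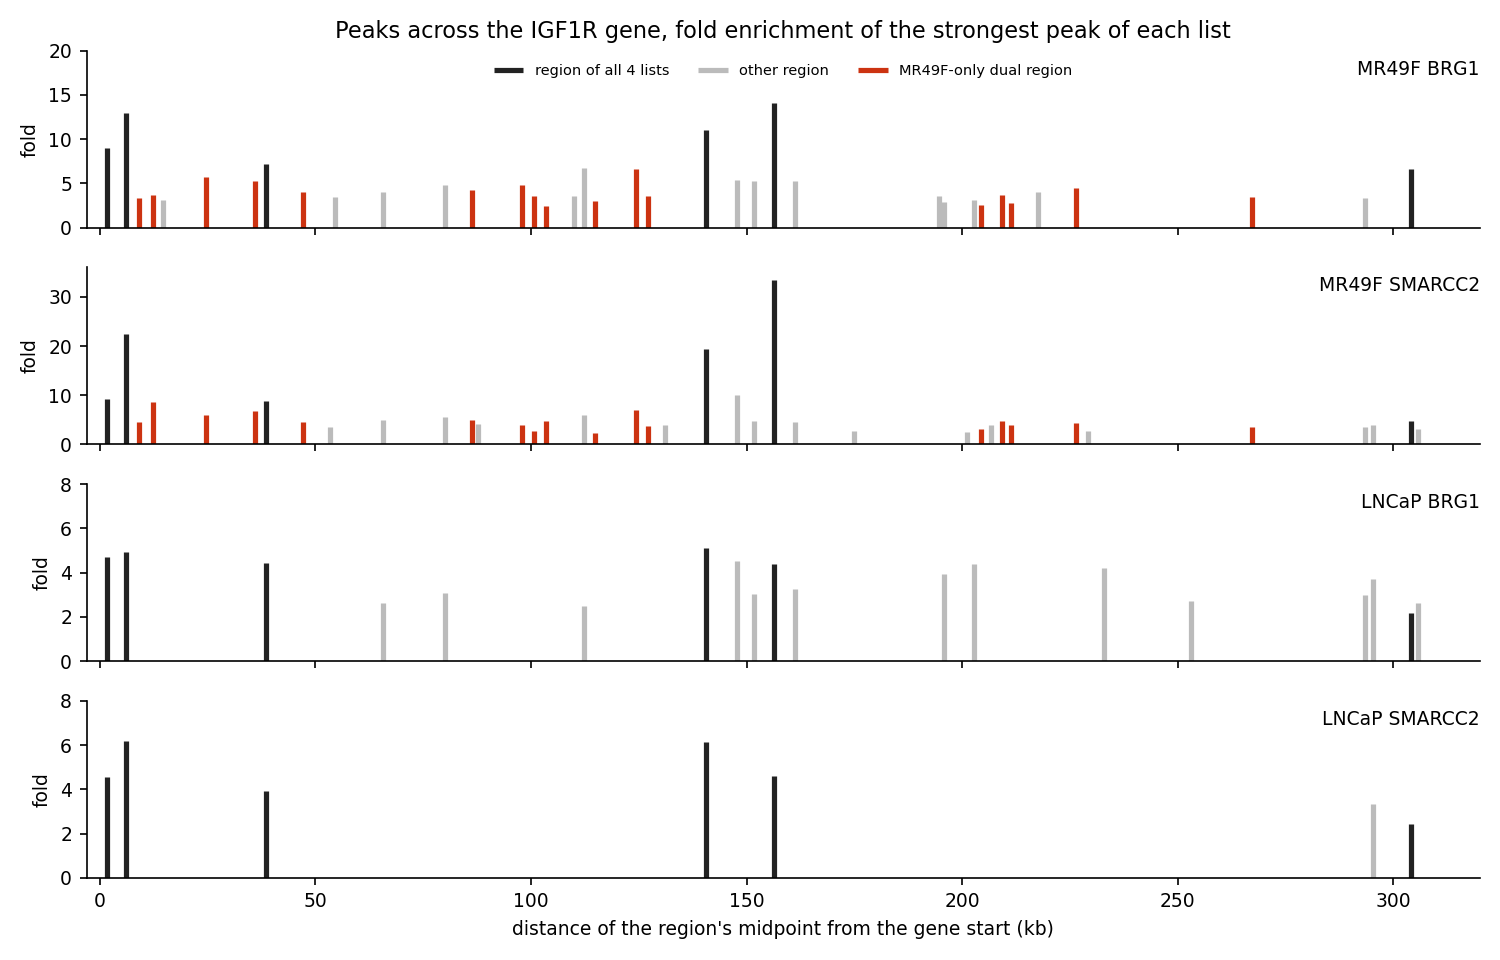
Fold enrichment of the strongest peak of each list in every region of IGF1R, against the distance of the region's midpoint from the gene start in kb, with 1 panel per list and its own vertical scale. The 17 MR49F-only regions (red) are low beside the regions of all 4 lists (black) in both MR49F panels and have no bar in the LNCaP panels, by definition.

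The other genes with the most MR49F-only intragenic regions were long. PTPRM, a receptor tyrosine phosphatase gene of cell contacts, PDE4D and CNTNAP2, a neurexin-family adhesion gene, held 12 each. PRKCE, the gene of protein kinase C epsilon, KCNMA1, a calcium-activated potassium channel gene, and CTNNA3, an alpha-catenin gene, held 10 each. PDE8B, NEDD4L, FOXP1, RAD51B and ANKS1B held 9 each, as did MACROD2, which the order of ties left out of the first 12. Spans of these 12 genes, IGF1R included, ran up to 2304 kb. At the rate of genes over 300 kb, the span of IGF1R gives 1.05 sites, that of PTPRM 2.80, that of PDE4D 5.17 and that of CNTNAP2 7.67. With either antibody each of the 12 genes had more peaks in MR49F than in LNCaP. The genes were chosen for their MR49F-only sites, and the MR49F lists are longer, so this excess largely describes the choice. It was not compared with that of other long genes. All 12 genes held a region of all 4 lists, and 7 held LNCaP-only intragenic regions as well. KCNMA1 had 5 of these. With the 10000 strongest peaks the count was 8 in PTPRM, 4 of them overlapping original sites, and 0 in PDE8B. The background ratio around PTPRM was 1.13 for BRG1 and 1.24 for SMARCC2. It was higher with both antibodies around ANKS1B, at 1.27 and 1.26, and around MACROD2, at 1.44 and 1.51.

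Some short genes were densely occupied. KLF16, a Krüppel-like zinc finger gene of 24.1 kb, held 5 MR49F-only sites, with BRG1 folds from 3.48 to 5.66 and SMARCC2 folds from 2.71 to 7.18. RND3, the gene of an atypical small GTPase, held 4 in 19.5 kb and no LNCaP peak. MICOS10 (32.8 kb), CD9 (38.3 kb), a tetraspanin gene, and AKR1D1 (41.8 kb) held 4 each, and RALGDS (51.5 kb), a Ral exchange factor gene, held 5. The sites of AKR1D1, which encodes steroid 5-beta-reductase, were the strongest of these. Their BRG1 folds were 7.83, 7.16, 22.6 and 4.33 along the chromosome, with SMARCC2 folds of 9.60, 11.8, 41.3 and 5.81. Counted anew with lists cut to the shortest, AKR1D1 held 4 sites, RND3 2 and KLF16 1, each overlapping an original one. With the 10000 strongest peaks AKR1D1 held 3, all overlapping original ones, and RND3 and KLF16 held 0. The window of KLF16 had a background ratio of 0.764 for BRG1 and 0.855 for SMARCC2.

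Neighbouring sites of the same gene formed 70 clusters of 3 or more, with gaps of up to 12232 bp. Clusters were counted per gene, so the 4 sites of MICOS10 were counted again under MICOS10-NBL1, a gene entry that spans the same sites. The clusters held 231 distinct sites, 4.68% of all, in 68 gene entries, and had a median length of 15.2 kb. No other region lay between the sites in 37 clusters, and a region of all 4 lists lay between them in 11. Clusters with 5 or more sites included those in IGF1R (7 sites over 42.0 kb), KLF16 (5 over 18.9 kb), RAP1GAP (5 over 36.9 kb) and again IGF1R (5 over 39.5 kb). RAP1GAP encodes a protein that turns off the GTPase Rap1. In the RAP1GAP cluster BRG1 folds ran from 3.60 to 11.9 and SMARCC2 folds from 4.12 to 12, with no other region between its sites. With gaps of at most 5 kb there were 26 clusters, with lists cut to the shortest 11, and with the 10000 strongest peaks 3.

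A region of all 4 lists lay inside 1568 (49.1%) of the 3195 genes with an MR49F-only intragenic region, against 20.5% of all genes, and an LNCaP-only region of both antibodies inside 438 (13.7%), against 5.59%. Genes with a site are longer. Among genes of 100 to 300 kb, a region of all 4 lists lay inside 65.7% (62.8 to 68.5) of genes with a site and 45.5% (42.9 to 48.1) of genes without, and an LNCaP-only region inside 17.7% (15.6 to 20.1) and 16.9% (15 to 18.9). Under 10 kb the shares with a region of all 4 lists were 2.06% (0.567 to 7.21) and 2.22% (1.85 to 2.65). In 654 genes with a site (20.5%) no LNCaP summit lay in the span, against 46.7% of all genes, and 84 of the 654 held 2 or more sites. Under 10 kb this share was 78.4% (69.2 to 85.4) with a site and 74.9% (73.7 to 76.0) without, and from 10 to 30 kb 53.0% and 53.9%. In each class above 30 kb it was lower with a site, as at 100 to 300 kb, with 7.98% (6.51 to 9.75) against 18.7% (16.8 to 20.9). Genes named by rule with no LNCaP summit in the span included AKR1D1, CDKN1A, FN1, FOXA2, IGF1, MICOS10, NCAM1, NEUROD1, RND3, SPARC and SULT2B1. The 2 sites of CDKN1A had BRG1 folds of 7.94 and 7.64 and SMARCC2 folds of 9.27 and 5.70. FN1 (fibronectin) had 2 sites, with BRG1 folds of 6.09 and 6.12. SULT2B1, which encodes a sterol sulfotransferase, had 3, with BRG1 folds from 3.83 to 9.44 and SMARCC2 folds from 4.45 to 10.9.

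The MR49F-only intragenic regions were counted in 28 gene groups and set beside the number that the same length of gene gives at the rate of its length class. With no replicate this is a description, and the groups were drawn up with earlier results of these data known. Counts stood above that number in 17 groups by this measure and by a second one that uses the mean count per gene of 20 length classes. They stood below it in 10 by both, and between the measures in 1. How many genes of a group held a site depended on the peak lists: of 27 groups, the number of such genes stayed within 1.5 times in 22 at a −log10 q of 5 or more, 13 with lists cut to the shortest and 8 with the 10000 strongest peaks. The highest ratio was in insulin and IGF signalling, with 30 sites against 7.59. The sites lay in 8 of 16 genes, where the 20 length classes give 5.08 genes and 16.7% of all genes held a site. IGF1R gave 17 of the 30 sites. GRB10, an adaptor that restrains insulin and IGF receptors, gave 6, with BRG1 folds from 3.49 to 5.92, and IGF1, the ligand gene, gave 2. With lists cut to the shortest the group held 15 sites in 5 genes, and with the 10000 strongest peaks 3 in 2 genes. For groups described next, the 20 length classes give 9.14 genes for androgen receptor and partner factors, 8.48 for androgen response and 2.32 for glucocorticoid receptor targets. They give 3.24 for steroid metabolism, 7.46 for nuclear receptors and lipid metabolism, and 6.49 for Wnt. They give 11.8 for receptor tyrosine kinases, 10.3 for chromatin and histone enzymes, and 14.3 for neuronal adhesion and synapse genes.

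Groups of androgen and glucocorticoid receptor genes held more sites than their length gives, but fewer relative to other classes of region. Over all genes there were 70.2 MR49F-only sites per 100 regions of all 4 lists, and 3.72 per LNCaP-only region. Each group in this paragraph had fewer by both measures. Insulin and IGF signalling, at 30 sites beside 24 regions of all 4 lists, and neuronal adhesion and synapse genes, at 78 beside 46, had more. No number by length was worked out for regions of all 4 lists or for LNCaP-only regions in any group, and no excess was tested. The group of androgen receptor and partner factors had 30 sites against 15.9, in 12 of 21 genes, beside 56 regions of all 4 lists and 14 LNCaP-only ones. Of these sites ERG, an ETS factor gene, had 5 and NFIA, a nuclear factor I gene, 3. NFIA also had 4 LNCaP-only regions. Androgen response genes had 24 sites against 13.1, in 13 of 31 genes, beside 68 regions of all 4 lists and 14 LNCaP-only ones. FKBP5 had 3 sites of high rank, with BRG1 folds of 7.18, 11.7 and 14 and SMARCC2 folds of 12.4, 29.5 and 16.9 towards its start. Its 2 regions of all 4 lists had BRG1 folds of 6.46 and 9.58 in MR49F. Counted anew, FKBP5 held 3 sites with lists cut to the shortest and 2 with the 10000 strongest peaks, all overlapping original ones. PMEPA1, which encodes an inhibitor of TGF-beta signalling, also had 3. Glucocorticoid receptor targets had 9 sites against 3.70, in 4 of 14 genes, beside 21 regions of all 4 lists and 4 LNCaP-only ones. FKBP5 is in this group and among the androgen response genes. KLF9 and ZBTB16, both induced by glucocorticoids, had 2 each. ZBTB16 also held 11 regions of all 4 lists, and had 30 BRG1 peaks in LNCaP against 22 in MR49F. At a −log10 q of 5 or more, and with lists cut to the shortest, no site counted in either gene overlapped an original one.

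Steroid metabolism had 10 sites against 4.10 in 4 of 20 genes, 4 in AKR1D1, 3 in SULT2B1 and 2 in SLCO1B3, which encodes a steroid and bile acid transporter. Nuclear receptors and lipid metabolism had 26 against 15.8, in 11 of 25 genes. RORA, an orphan receptor gene, had 6, PPARGC1A, a coactivator of mitochondrial genes, had 4, and SCD, the stearoyl-CoA desaturase gene, had 3. The Wnt pathway had 22 against 9.88, in 11 of 25 genes and beside 3 LNCaP-only regions. ROR1, a receptor kinase for Wnt ligands, had 7, ZNRF3, a ligase that removes Wnt receptors, 4, and LEF1, a nuclear effector, 2. The Wnt group had 16 sites in 7 genes at a −log10 q of 5 or more, 13 in 6 with summits within 200 bp, 4 in 3 with lists cut to the shortest, and 1 with the 10000 strongest peaks.

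Receptor tyrosine kinases had 37 sites against 25.7 in 15 of 30 genes. ROR1 had 7 of these, EPHA6, an ephrin receptor gene, 7 and ERBB4 6. IGF1R was not counted in this group. CAPZB, an actin capping gene, had 5 sites, and VAV3, a guanine nucleotide exchange factor gene, had 4. Chromatin and histone enzymes had 28 against 18 in 13 of 26 genes, with 5 each in HDAC4 and HDAC9. Luminal prostate genes had 12 against 7.67, all in PDE4D, so the other 17 genes of the group had none. They held 43 regions of all 4 lists, PDE4D included.

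In other groups the count was near or below what length gives. Neuronal adhesion and synapse genes had 78 sites in 18 of 21 genes against 103 by length, though against 35.7 by the mean of their length class, which pools all genes over 250 kb while their median span was 1463 kb. Cell adhesion and junction genes had 26 against 26.0, YAP and TEAD genes 12 against 10.9, PI3K and AKT genes 17 against 13.6, and mesenchymal transition genes 5 against 5.20. Neuroendocrine genes had 3 against 3.19, 1 each in FOXA2, NEUROD1 and NCAM1. The genes of SWI/SNF subunits themselves had 7 against 9.88, with 2 each in BICRA and ARID1B. AP-1 and stress factors had 2 against 4.2, both in MAFG. Genes of fibroblasts, of leukocytes, and of hepatocytes and muscle had none, against 2.73, 1.93 and 2.58.

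**Figure D5:**
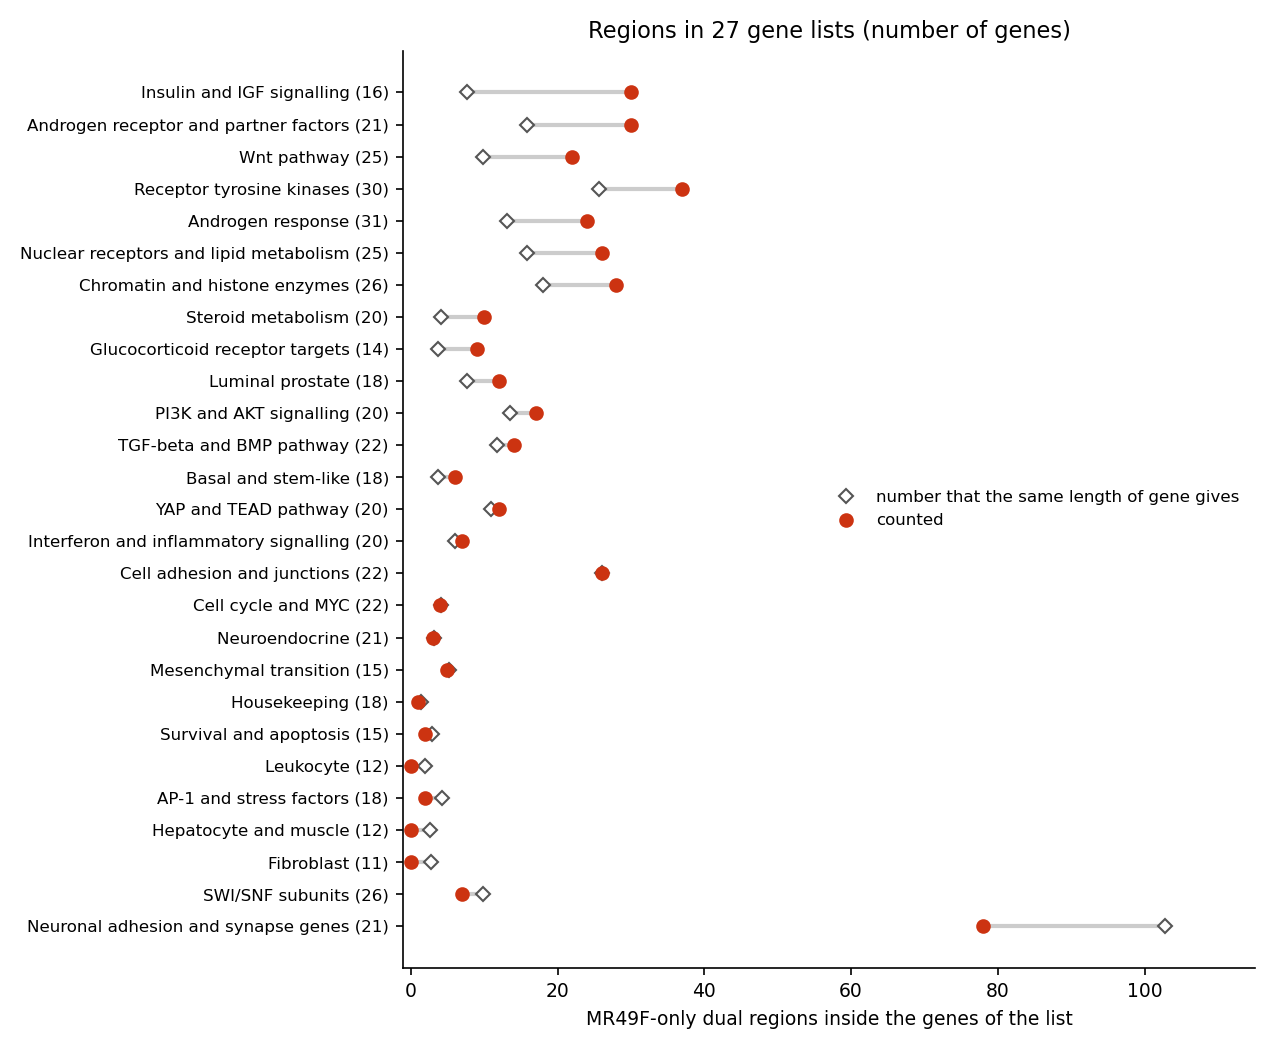
Number of MR49F-only intragenic regions counted in each of 27 gene groups (red points) and the number that the same length of gene gives at the rate of its length class (open diamonds), with the number of genes of each group in brackets. The count lies farthest above the diamond for insulin and IGF signalling, at 30 against 7.59, and farthest below it for neuronal adhesion and synapse genes, at 78 against 103.

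MicroRNA hairpins lay within some of the MR49F-only intragenic regions. Among them were MIR4669 in RXRA, MIR6732 in ZC3H12A, MIR10392 in EHD1, MIR6090 in ETS1, and the pair MIR3190 and MIR3191, on opposite strands in BBC3. The region in RXRA, which encodes a retinoid X receptor, was the strongest of these, with a BRG1 fold of 10.2 and a SMARCC2 fold of 8.89. RNA was not measured in these samples, so nothing here bears on the output of any of these genes.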

How the data were processed

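SWI/SNF subunits BRG1 and SMARCC2 were profiled by ChIP-seq in LNCaP and MR49F, with 1 library per line and antibody. Per the submitters' processing notes, BWA 0.7.10, SAMtools and MACS2 2.1.0 were used with build hg38. Which input served as control, and any filter, is not given in the sources used here. Every peak, as deposited, carries a fold enrichment (a ratio over local background), a −log10 p-value, a −log10 q-value and a display score, as the authors' peak caller wrote them; the score was not used. The lowest deposited −log10 q was about 2, a q-value threshold of 0.01.

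Peaks sharing at least 1 bp were joined with Python 3.11.15, NumPy 2.4.6, pandas 2.3.3 and SciPy 1.17.1, and plotted with matplotlib 3.10.9. The joining was checked on simulated peaks. Local background and summit tag counts were solved from fold and p-value, and compared between lines as medians per 10 Mb window relative to autosomes. Genes came from a RefSeq table (GRCh38.p14), and starts and strand from a RefSeq promoter table that matched 15101 of 19126 autosomal protein-coding genes. Shares have Wilson 95% intervals, which cover counting error only. Read depth was not given in the peak files, so precision per peak rests on its summit tag count. The sites and gene groups were chosen with earlier results of these data known.

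Named by rule were the 12 strongest sites, the 12 genes with most sites, the 6 genes with most per 100 kb among genes with 4 or more, up to 3 genes per gene group, and the 5 largest clusters. The 28 groups had 551 distinct genes, of which 542 matched. Genome sequence and exons were not used here, so the planned exon share, summit motifs and summit windows were replaced by listed starts. Some named genes and 1 gene group are not reported here.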

Additional observations from a re-analysis of the deposited data

How the results depend on the processing

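With a −log10 q of 5 or more in all lists, MR49F-only sites made up 21.2% of regions inside genes, their summits lay 57 bp apart and 16.7% were within 10 kb of a region of all 4 lists. With lists cut to the shortest, the values were 2516 sites, 12.1%, 1894 genes, 41 bp, 15.7%, 11 clusters and 2319 LNCaP-only regions. With the 10000 strongest peaks they were 1287 sites, 13.8%, 1086 genes, 29 bp, 6.37% and 3 clusters. With summits within 200 bp as the rule for joining, the share was 12.6%, the distance 48 bp, which that rule limits, and the part near regions of all 4 lists 15%. Without an LNCaP peak within 1 kb the share was 15.4% and the part near shared regions 20.3%. More than 5 kb from gene ends, summits were 62 bp apart. Gaps of at most 5 kb gave 26 clusters. Limiting the sites to windows with a background ratio between 0.8 and its inverse left every count over all genes within 1.5 times. It left every share and distance over all sites within its interval. Shorter lists hold fewer sites by construction, and for the other shifts the cause was not tested.

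Of the 76 named genes, the count of sites stayed within 1.5 times in 71 without LNCaP peaks within 1 kb, in 23 with lists cut to the shortest and in 9 with the 10000 strongest peaks, where 41 had no site. With the limit on the background ratio it stayed so in 67, and 9 had no site, ANKS1B, MACROD2 and KLF16 among them. No paired analysis was possible because each line and antibody had 1 library. The exon share, the AP-1 share at summits and its narrower window were not run, since no genome sequence or exon annotation was used here. Summit counts of about 25 tags limit what can be said of single sites.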
